A study of Rattus norvegicus with 8 samples.

Results

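The genes of fatty acid oxidation and of the peroxisome were examined across cortex and medulla of rat kidney. Members were the probe sets annotated with 1 of 35 listed gene symbols and no other, with the brightest probe set kept per gene, and 34 of the 35 were measured among 18166 genes. Decr2 was not measured alone, since its 4 probe sets also name other genes. Total RNA came from kidneys of 10-week-old male Wistar rats dosed for 1 week with ethylene glycol every day plus vitamin D on alternate days, and was hybridised to Affymetrix whole-transcript arrays, 4 of cortex and 4 of medulla. All 8 arrays carry that same treatment label, so the design holds no untreated group, and tissue region is the 1 labelled difference. The labels do not say which arrays share an animal. A p-value here reflects array-to-array spread alone, in which differences between animals and technical differences cannot be told apart. In whole tissue, fewer cells of a type and less RNA per cell cannot be told apart.

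Fatty acids are the main fuel of the proximal tubule. After activation to acyl-CoA, long chains enter mitochondria through the carnitine shuttle and are shortened by repeated dehydrogenation, hydration, dehydrogenation and thiolysis, with electrons passed on through electron transfer flavoprotein. Peroxisomes, abundant in proximal tubule cells, shorten very long and branched chains by a parallel set of enzymes that yields hydrogen peroxide, which catalase breaks down. PPAR alpha, the nuclear receptor encoded by Ppara, and its coactivator PGC-1 alpha, encoded by Ppargc1a, switch on many genes of both pathways. The 34 genes were separated into 16 mitochondrial, 11 peroxisomal, 4 whose proteins are found in both compartments, the activating enzyme gene Acsl1 and the 2 regulators.

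Array medians lay between 34.1 and 34.7 intensity units, or 5.09 to 5.12 on the log2 scale, and precision is limited by having 4 arrays a region. The lowest value of any member, 5.56 for Acox2, was above these medians. A median is no detection limit, however, and no detection call was made here. The 6569 genes with a mean log2 intensity of at least 6.17, that of the dimmest member, served as a second background. Below they are called genes as bright, or as bright as the members. This is a floor only, and these genes are not matched to the members' brightness. Markers of the proximal tubule were strong in the arrays labelled medulla too, where their summed intensity was 10641 to 16578 over 16 genes, against 14141 to 18097 in cortex, and 15 of the 16 had a negative medulla minus cortex difference.

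Between the regions no member differed beyond the spread of the arrays. Of the 34 members, 27 had a lower mean in medulla, 15 of 16 mitochondrial, 7 of 11 peroxisomal and 4 of 4 of both compartments, against 54.2% of all genes and 47.7% of genes as bright as the members. Differences were small, from -0.26 to 0.17 on the log2 scale, with a median of -0.16 for mitochondrial and -0.10 for peroxisomal members beside -0.01 over all genes. These medians depended on single arrays. Without medulla replicate 4 they were -0.069 and 0.0082, and without cortex replicate 2 the mitochondrial median was -0.10. The peroxisomal median moved by over 1.5 times when any array but medulla replicate 1 was left out, to -0.026, -0.062, -0.047 and -0.18 without cortex replicates 1 to 4 and to -0.16 and -0.060 without medulla replicates 2 and 3. By limma with Benjamini-Hochberg adjustment over all genes, 0 members and 0% of all genes were called at an adjusted p under 0.05 and 2-fold, and the members' adjusted p lay between 0.875 and 0.997. The count of negative differences was 20 without medulla replicate 4 and 32 without cortex replicate 4 or without medulla replicate 3.

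An unadjusted limma p under 0.05 was reached by 2 members, both lower in medulla, where 2.58% of all genes passed as lower and 2.77% as higher. In either direction it was reached by 971 of all 18166 genes and by 435 of the 6569 genes as bright. The members' share, 2 of 34, is near these. Hadhb encodes the beta subunit of the mitochondrial trifunctional protein, which carries the thiolase. Cortex gave 8.56, 8.66, 8.75 and 8.59 log2 intensity and medulla 8.35, 8.51, 8.61 and 8.40, replicates 1 to 4 in turn. Its regions overlapped, and the difference of -0.17 ± 0.07 (SE) had an adjusted p of 0.875 by limma. Crat encodes carnitine acetyltransferase, which moves acetyl groups between CoA and carnitine. Its cortex values were 7.68, 7.84, 7.86 and 7.68 and its medulla values 7.60, 7.75, 7.25 and 7.43, so that only medulla replicate 2 reached into the cortex values, and the difference was -0.26 ± 0.11 (SE) with an adjusted p of 0.875 by limma. Regions that did not overlap were found in 0 of 34 members and in 2.83% of all genes. In the other direction, Phyh, which starts the alpha-oxidation of phytanic acid, was the member with the highest difference, at 0.17 ± 0.10 (SE).

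Within a region, the replicate 4 array was the low one for most members. In 21 of 34 members the lowest value of cortex was on cortex replicate 4 and the lowest of medulla on medulla replicate 4, a pattern shown by 16.0% of all genes and 24.6% of genes as bright as the members. It held in 9 of 16 mitochondrial members, 7 of 11 peroxisomal members, 2 of 4 of both compartments, Acsl1 and both regulators. Taken 1 region at a time, 24 members were lowest on cortex replicate 4 and 24 on medulla replicate 4, where the background was 31.6% and 28.1% of all genes. Among the 6569 genes as bright the counts were 2583 and 1975. The opposite, highest on replicate 4 in both regions, was seen in 1 member, Pex11a, in 17.0% of all genes and in 1562 of the 6569 genes as bright. The labels give no group within a region, so these counts describe arrays and compare no conditions. The series' design text, however, selects genes by a change of at least 2-fold within cortex and within medulla, so arrays of a region may differ in a condition that the labels do not give. Whether replicate 4 is such an array is not known here, and if it is, the standard errors and p-values between the regions include that difference. If cortex replicate 4 and medulla replicate 4 come from 1 animal, which the labels do not say, their agreement is 1 observation. A range of at least 2-fold was found in few members. It was met by 3 members in cortex and by 3 in medulla, against 3.6% and 3.8% of all genes. Of the 6569 genes as bright, 539 met it in cortex and 506 in medulla. In both regions it was met by 2 members, against 2.21% of all genes and 5.05% of genes as bright. Without cortex replicate 4, 0 members met it in cortex, without cortex replicate 1 it was 1, and without medulla replicate 4, 0 met it in medulla. The members' shares, 3, 3 and 2 of 34, are near those of the bright genes.

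**Figure D1:**
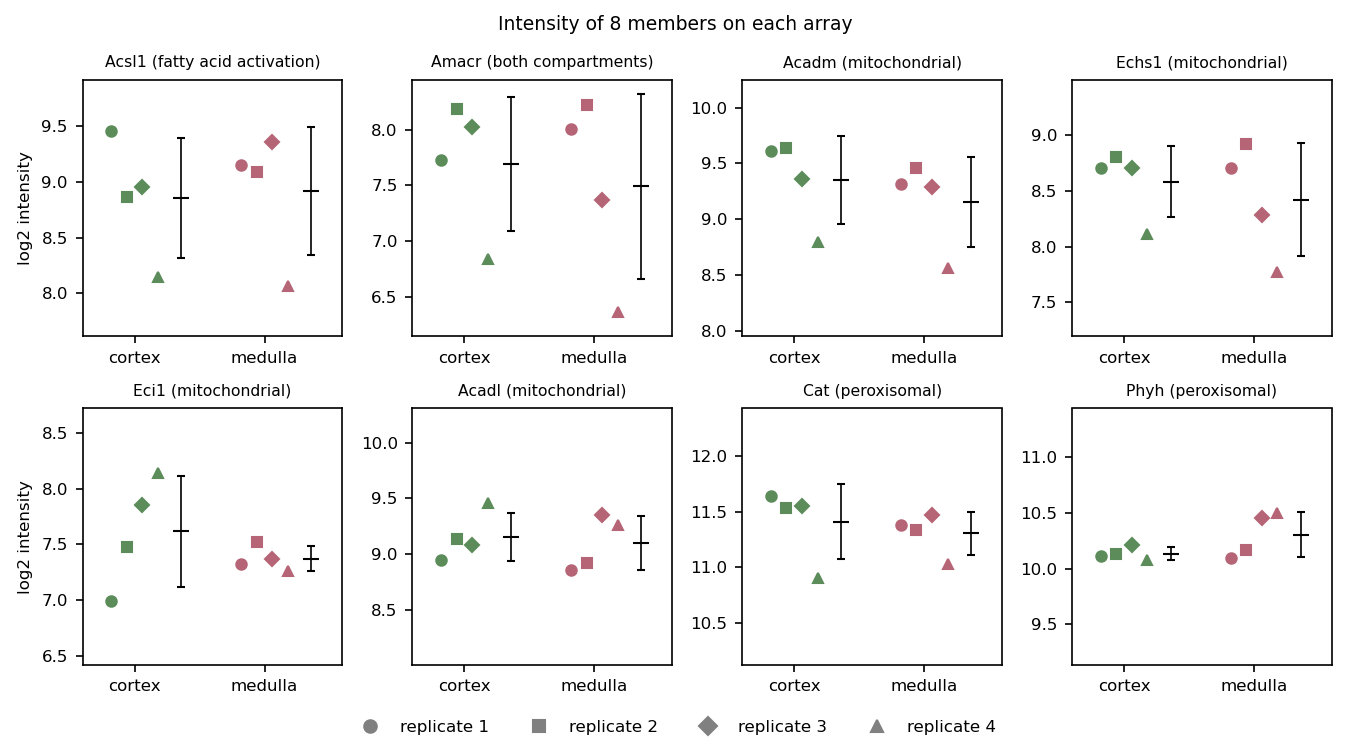
Log2 intensity of 8 members on every array, cortex in green and medulla in red, with 1 marker shape per replicate and the mean ± SD of 4 arrays as a black bar; each panel spans the same number of log2 units. Replicate 4 (triangle) is the lowest array of both regions for Acsl1, Amacr, Acadm, Echs1 and Cat, and the highest cortex array for Eci1 and Acadl.

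Acsl1 and Amacr were the 2 members that passed 2-fold in both regions. Acsl1 encodes the long-chain acyl-CoA synthetase that activates fatty acids before oxidation or storage. In cortex it measured 9.46, 8.87, 8.95 and 8.15 log2 intensity, and in medulla 9.15, 9.09, 9.36 and 8.07. Replicate 4 was clearly the lowest in each region, by 0.94 and 1.13 below the mean of the other 3 arrays, and the values spanned 2.48-fold in cortex and 2.44-fold in medulla. Without the replicate 4 arrays the ranges were 0.59 and 0.27 log2 units, and without cortex replicate 1 the cortex range was 0.81, under 2-fold. Amacr encodes alpha-methylacyl-CoA racemase, which turns branched-chain and bile acid intermediates into the form that beta-oxidation accepts. It measured 7.73, 8.19, 8.02 and 6.84 in cortex against 8.01, 8.22, 7.37 and 6.37 in medulla, spanning 2.55-fold and 3.61-fold. Medulla replicate 3 also lay below the other 2 remaining medulla arrays, and without the replicate 4 arrays the Amacr ranges were 0.46 and 0.85. Between the regions Acsl1 differed by 0.06 ± 0.35 (SE) and Amacr by -0.20 ± 0.46, both less than their standard errors.

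Sequences before a transcript start of these 2 genes are shown because they are the members with the largest ranges when the smaller of the regions is taken. They come from RefSeq on the rat assembly GRCr8, hold the 250 bases upstream, and are written 5′ to 3′ in the direction of the gene, with capitals for AGGTCA, the half-site bound by PPAR alpha and related nuclear receptors, on either strand. The Amacr window is chr2:61673085-61673334, plus strand, and holds 1 half-site, which begins at position -201 relative to the transcript start used in the table. The Acsl1 window is chr16:52532393-52532642, minus strand, and holds no half-site. RefSeq places the Acsl1 gene at chr16:52487870-52554110 and Amacr at chr2:61673291-61685381, so the Acsl1 window lies inside the annotated gene, before 1 of its transcript starts and far from the gene's outermost start, and the Amacr window reaches past the outermost start. The absence of the half-site from the Acsl1 window therefore says nothing about other starts of that gene. G and C made up 65.2% of the Amacr bases and 40.0% of the Acsl1 bases, against a median of 51.2% over all promoters.
Amacr: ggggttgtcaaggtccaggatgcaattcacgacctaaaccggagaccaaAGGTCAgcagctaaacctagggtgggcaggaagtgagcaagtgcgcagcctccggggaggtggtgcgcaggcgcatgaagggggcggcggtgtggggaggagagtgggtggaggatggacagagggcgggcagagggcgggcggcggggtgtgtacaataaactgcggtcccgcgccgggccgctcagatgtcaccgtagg
Acsl1: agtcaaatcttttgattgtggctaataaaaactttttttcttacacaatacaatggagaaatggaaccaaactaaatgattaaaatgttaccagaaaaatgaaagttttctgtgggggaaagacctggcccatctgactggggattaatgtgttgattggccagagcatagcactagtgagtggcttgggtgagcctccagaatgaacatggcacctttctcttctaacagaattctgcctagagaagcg
Of the 34 members, 30 had a promoter in the table. Motifs were searched in the same 250 upstream bases of every promoter. AGGTCA on either strand was found in 6 of these 30 (Acadvl, Amacr, Cat, Echs1, Eci1 and Hsd17b4) and in 14.1% of 33469 promoters. The full PPAR element AGGTCANAGGTCA, which contains the half-site in 2 copies, was in 0 of the 30 and in 0.0508% of all. TCAAGGTCA, the element of estrogen-related receptors, which also contains the half-site, was in 0 and 0.388%. Only these exact letters were searched. At such shares 0 of 30 is likely for any promoters, so the 0 counts decide nothing about these genes.

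Among mitochondrial members, Cpt1a, the carnitine palmitoyltransferase that controls entry into mitochondria, measured 8.62, 8.47, 8.50 and 8.17 in cortex against 8.71, 8.54, 8.50 and 8.22 in medulla. Replicate 4 was lowest in each region, by 0.36 on both sides. Cpt2, which completes the entry on the inner membrane, stayed within 0.31 log2 units in cortex and 0.16 in medulla and was not lowest on replicate 4. Among the acyl-CoA dehydrogenases, Acadm, of medium chains, measured 9.61, 9.64, 9.36 and 8.79 in cortex against 9.31, 9.45, 9.29 and 8.56 in medulla, and its replicate 4 arrays stood apart below the rest, by 0.75 and 0.80. Acadl, of long chains, went the other way in cortex, with 9.45 on replicate 4 against 8.94 to 9.13, and had 9.26 on medulla replicate 4 against 8.86 to 9.35. Acadvl, of very long chains, and Acads, of short chains, ranged over 0.16 and 0.31 in cortex and 0.62 and 0.72 in medulla. Acads had its lowest medulla value, 5.76, on replicate 3.

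The enzymes of hydration, of the second dehydrogenation and of thiolysis varied among themselves. Echs1, the short-chain enoyl-CoA hydratase, measured 8.71, 8.81, 8.71 and 8.11 in cortex against 8.71, 8.92, 8.28 and 7.77 in medulla. Its medulla range of 2.22-fold made it the third member past 2-fold there, though the range was 0.64 log2 units without medulla replicate 4 and 0.94 without medulla replicate 2. Hadh, the short-chain hydroxyacyl-CoA dehydrogenase, measured 9.34, 9.46, 9.48 and 8.81 in cortex against 9.08, 9.32, 9.24 and 8.59 in medulla, and its replicate 4 arrays were both 0.62 below the mean of the others. Hadha, the alpha subunit of the trifunctional protein, was also lowest on replicate 4 but by 0.26 and 0.17 only. The thiolase gene Acaa2 had its lowest cortex value on replicate 1, with 8.32, 8.72, 9.02 and 9.02, and its medulla values were 8.31, 8.54, 8.81 and 8.47. The electron transfer genes were lowest on replicate 4 as well. Etfdh, which hands the electrons to ubiquinone, measured 8.42, 8.53, 8.38 and 8.00 in cortex against 8.16, 8.29, 8.41 and 7.81 in medulla, and Etfa and Etfb, the flavoprotein subunits, were lowest on replicate 4 too, by 0.37 and 0.21 in cortex and by 0.55 and 0.46 in medulla.

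Auxiliary enzymes handle unsaturated fatty acids. Eci1, the mitochondrial enoyl-CoA isomerase, was named after its values were seen, as the third member past 2-fold in cortex. It measured 7.00, 7.47, 7.85 and 8.14 in cortex, a span of 2.21-fold with replicate 4 the highest, and 7.32, 7.52, 7.37 and 7.26 in medulla. Its cortex range was 0.86 log2 units without cortex replicate 4 and 0.67 without cortex replicate 1, both under 2-fold. Decr1, the mitochondrial dienoyl-CoA reductase, was likewise lowest on cortex replicate 1, at 6.71, and highest on cortex replicate 4, at 7.40, with a medulla range of 0.34. Eci2 and Ech1, isomerases found in both compartments, ranged over no more than 0.63. Eci2 measured 8.44, 8.53, 8.60 and 8.33 in cortex against 8.37, 8.59, 8.28 and 8.32 in medulla, and Ech1 8.16, 8.37, 8.62 and 8.02 in cortex against 8.28, 8.38, 8.06 and 7.75 in medulla. Ech1 was lowest on replicate 4 in both regions, and Eci2 in cortex only.

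**Figure D2:**
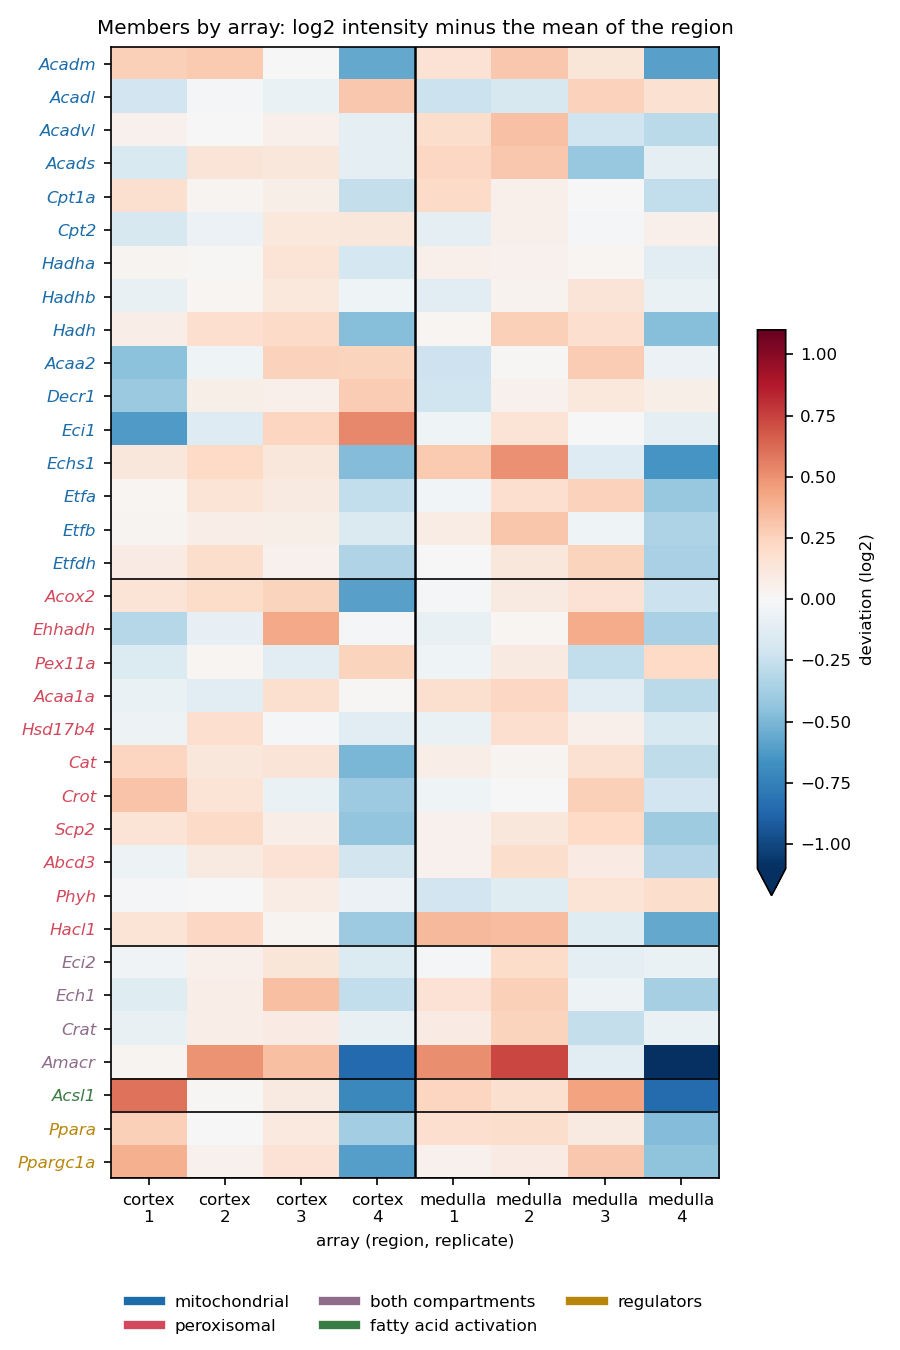
Each of the 34 members by array, as log2 intensity minus the mean of the 4 arrays of its region, from blue (lower) to red (higher), grouped by compartment with label colours in the legend. The replicate 4 columns are mostly blue, with Eci1, Acadl, Acaa2, Decr1 and Pex11a the reddest of them in cortex; the Amacr value on medulla replicate 4 lies beyond the colour scale.

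Among peroxisomal members, catalase (Cat) measured 11.64, 11.53, 11.55 and 10.91 in cortex against 11.38, 11.34, 11.47 and 11.03 in medulla, so that the replicate 4 arrays lay 0.67 and 0.37 below the mean of the others. Acox2, the oxidase of branched chains and bile acid intermediates, was at 5.56 on cortex replicate 4 against 6.31 to 6.40 and at 5.94 on medulla replicate 4 against 6.15 to 6.33. Ehhadh, the peroxisomal bifunctional enzyme, behaved otherwise, with its highest values on replicate 3. It measured 8.87, 9.09, 9.60 and 9.16 in cortex against 8.86, 8.96, 9.35 and 8.59 in medulla. Hsd17b4, the second bifunctional enzyme, ranged over 0.30 in cortex and 0.35 in medulla. The thiolase gene Acaa1a ranged over 0.30 and 0.52, and its close copy Acaa1b may share signal with it.

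Scp2, whose protein includes a thiolase for branched chains and a sterol carrier, measured 6.68, 6.74, 6.61 and 6.10 in cortex against 6.60, 6.68, 6.78 and 6.16 in medulla. Crot, which makes carnitine esters of the shortened chains for export, measured 8.33, 8.17, 7.95 and 7.62 in cortex against 8.05, 8.09, 8.35 and 7.89 in medulla. Hacl1, the lyase of alpha-oxidation, measured 7.11, 7.19, 7.00 and 6.57 in cortex against 7.27, 7.25, 6.78 and 6.35 in medulla. In these 3 genes replicate 4 was the lowest array of each region, and in Hacl1 medulla replicate 3 lay between it and the rest. Phyh, which acts before Hacl1, ranged over 0.14 in cortex and was highest in medulla on replicates 3 and 4, at 10.46 and 10.50 against 10.10 and 10.17. Abcd3, a transporter of the peroxisomal membrane, was lowest on replicate 4 by 0.27 and 0.43, while Pex11a, which promotes peroxisome division, was highest there by 0.33 and 0.29.

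The 2 regulators were lowest on replicate 4 in both regions. Ppara measured 6.89, 6.63, 6.73 and 6.24 in cortex against 6.64, 6.65, 6.55 and 5.98 in medulla, so replicate 4 stood 0.51 and 0.63 below the others. Ppargc1a measured 9.10, 8.75, 8.87 and 8.10 in cortex against 8.84, 8.88, 9.08 and 8.35 in medulla, with replicate 4 at 0.80 and 0.59 below. At 1.99-fold in cortex and 1.67-fold in medulla, Ppargc1a lay just under 2-fold, and its cortex range was 0.34 log2 units without cortex replicate 4. Its regional difference was 0.08 ± 0.24 (SE) and that of Ppara -0.17 ± 0.19, both less than their standard errors.

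The members were also summarised per array. The median deviation from the regional mean was, on cortex replicates 1 to 4, 0.02, 0.05, 0.11 and -0.13 for mitochondrial members and -0.02, 0.13, 0.08 and -0.20 for peroxisomal members. On the medulla arrays it was 0.01, 0.14, 0.07 and -0.20 for mitochondrial and -0.02, 0.10, 0.15 and -0.28 for peroxisomal members. Over all genes this median was within 0.01 of 0 on every array. Replicate 4 was thus the lowest array for both compartments in both regions. On replicate 1 the medians of the compartments were near 0 and of opposite sign. The difference between the compartments was not tested. The median range was 0.48 log2 units in cortex and 0.55 in medulla for mitochondrial members and 0.63 and 0.49 for peroxisomal members, against 0.33 and 0.44 for genes as bright and 0.21 and 0.25 for all genes. With both replicate 4 arrays removed (tried only once the values were known), the median ranges were 0.17 and 0.27 for mitochondrial and 0.20 and 0.31 for peroxisomal members, against 0.18 and 0.31 for genes as bright. At 1.5-fold, 11 members passed in both regions, 3 mitochondrial, 3 peroxisomal and 5 others, where 8.12% of all genes and 16.8% of genes as bright passed. No member passed 2-fold in either region with both replicate 4 arrays left out.

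**Figure D3:**
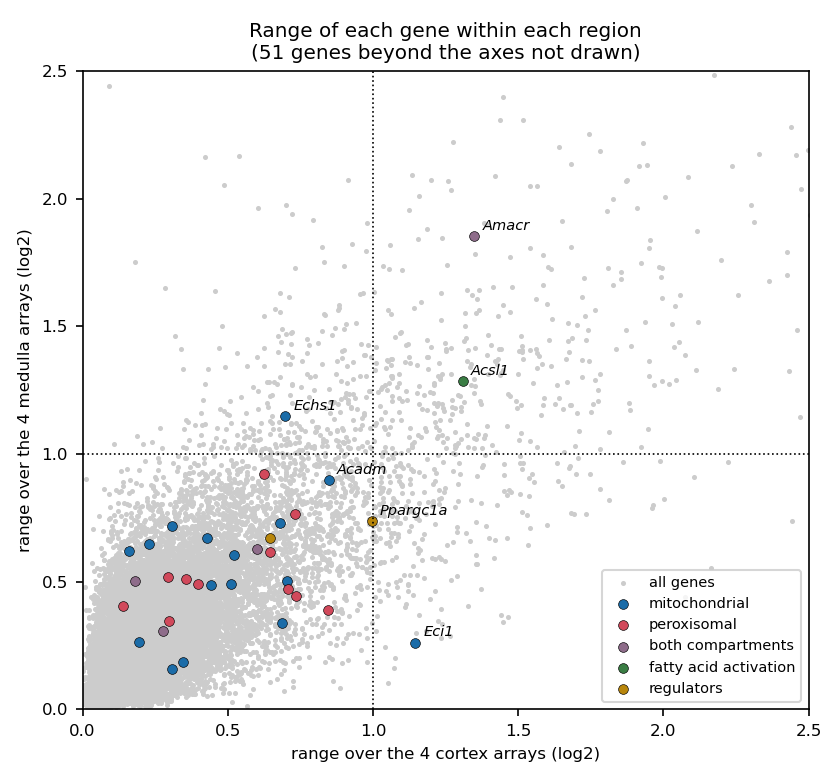
Range of each gene over the 4 cortex arrays (x axis) and over the 4 medulla arrays (y axis), in log2 units, for all genes in grey and for the 34 members in colour; dotted lines mark 2-fold. Acsl1 and Amacr lie past both lines, Eci1 past the cortex line and Echs1 past the medulla line.

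The wider pathway was read from 8 further lists, in which 119 of 140 genes were measured and limma called 0 between the regions, 0 higher and 0 lower. In the list of the carnitine shuttle and other mitochondrial oxidation, 8 of 13 genes were lowest on replicate 4 in both regions and 1, Acot2, was highest, with Acadsb, the dehydrogenase of short branched chains, at 6.45 against 7.69 to 8.12 in cortex and 6.62 against 7.71 to 7.90 in medulla. Other peroxisomal enzymes had 12 of 26 lowest there and 0 past 2-fold in either region. The genes of peroxisome biogenesis had median ranges of 0.27 and 0.25, 2 of 12 lowest on replicate 4 in both regions, and 0 past 2-fold. These were near the values over all genes (0.21, 0.25 and 16.0%) and below those of genes as bright (0.33, 0.44 and 24.6%). Some of the 12 are dimmer than the floor of that second background. Pex7, the import receptor for one class of peroxisomal enzymes, had the widest of these ranges, at 0.56 and 0.61. In the list of nuclear receptors and coactivators, Esrrg, an estrogen-related receptor that works with PGC-1 alpha, was the 1 of 18 past 2-fold in both regions, with 6.90 on cortex replicate 4 against 7.73 to 8.12 and 6.88 on medulla replicate 4 against 7.63 to 7.94.

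Genes that PPAR alpha is known to activate, other than the members, did not share one direction. Of 16 measured, 3 were lowest on replicate 4 in both regions and 6 were highest, against 16.0% and 17.0% of all genes. Fgf21, 1 of the 3 lowest, lay at 4.41 to 4.52, near the lower quartile of all probe sets, and ranged over 0.06 and 0.09 only. Creb3l3, 1 of the 6 highest, ranged over 0.21 and 0.28. Angptl4, a secreted inhibitor of lipoprotein lipase, stood at 7.80 on cortex replicate 4 against 4.69 to 5.26 and at 7.81 on medulla replicate 4 against 4.98 to 5.62. Plin2, which coats lipid droplets, stood at 9.37 against 7.01 to 7.16 in cortex and at 8.58 against 6.91 to 7.16 in medulla. Cyp4a1, a fatty acid omega-hydroxylase, was highest on replicate 4 as well, at 9.08 against 7.33 to 8.55 in cortex and 8.41 against 7.49 to 8.03 in medulla. It rose from replicate 1 to 4 in both regions, and its cortex range was still 1.22 log2 units without replicate 4. Fabp3, a fatty acid binding protein, was lowest on replicate 4, at 8.00 against 8.55 to 9.34 in cortex and 8.11 against 8.57 to 9.38 in medulla. The replicate 4 arrays carried the highest values of Angptl4 and Plin2 and the lowest of Fabp3 and Ppara. A relation between these genes was not tested.

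Uptake, synthesis and ketone genes were mixed as well. In the uptake and activation list 3 of 14 genes were lowest on replicate 4 in both regions and 4 were highest. Lpl, the lipase that frees fatty acids from lipoproteins, measured 9.24, 8.37, 7.19 and 6.62 in cortex against 8.86, 8.83, 8.10 and 6.95 in medulla, lowest on replicate 4 in each. Acsl4, the synthetase that prefers arachidonic acid, was highest there, at 8.02 against 7.01 to 7.35 in cortex and 8.25 against 6.89 to 7.65 in medulla, opposite to Acsl1. Acss2, which activates acetate, was lowest there, at 8.41 against 9.93 to 10.13 and 8.66 against 9.47 to 9.97. In the synthesis list 6 of 14 genes were lowest on replicate 4 in both regions and 1, Fads1, was highest. Of 6 ketone body genes 4 were lowest and 1 was highest. Among the lowest, Oxct1, which lets cells burn ketone bodies, was at 8.73 against 9.49 to 9.86 and 8.60 against 9.50 to 9.70. The monocarboxylate carrier gene Slc16a7 was at 7.86 against 10.01 to 10.65 and 7.98 against 10.43 to 10.48. The highest was Slc16a1, of the same carrier family, at 6.73 against 5.71 to 6.09 in cortex and 6.62 against 5.73 to 6.14 in medulla.

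**Figure D4:**
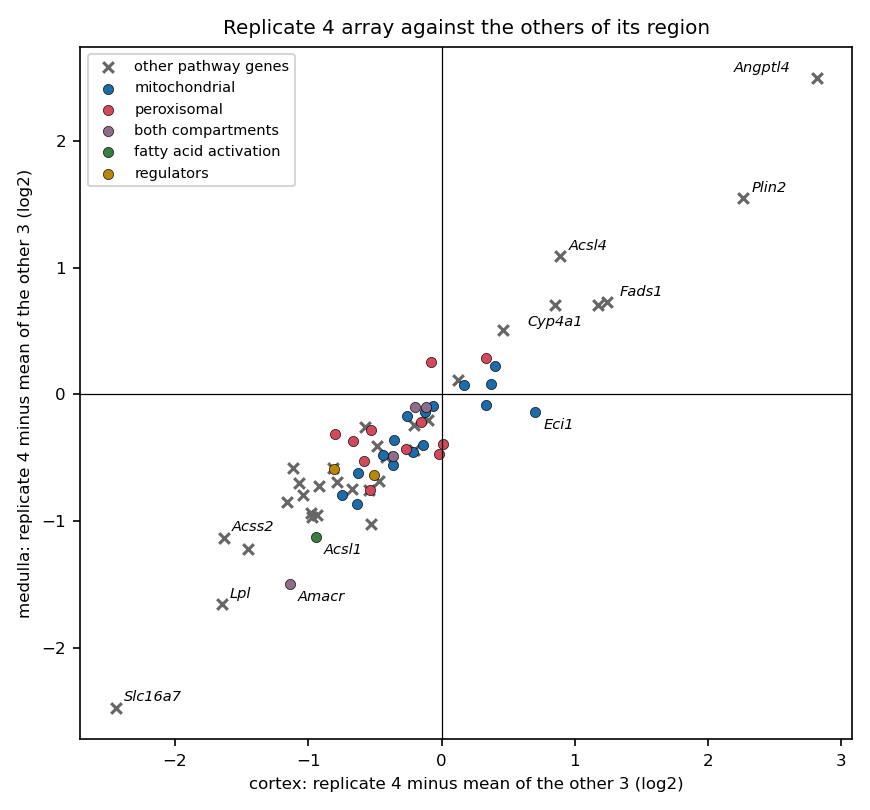
Log2 intensity on the replicate 4 array minus the mean of the other 3 arrays, in cortex (x axis) and medulla (y axis), for the 34 members (coloured by compartment) and for up to 4 genes from each of the 8 pathway lists (crosses). Most members lie in the lower left quadrant, with Acsl1 and Amacr farthest down, while Angptl4 and Plin2 lie at the upper right.

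Markers of other kinds moved on the same arrays. The 13 tubular injury genes had a summed intensity of 11479 on replicate 4 in cortex, where the rest had 2115 to 2687, and of 14009 on replicate 4 in medulla, where the rest had 2277 to 7304, and 10 of the 13 were highest on replicate 4 in both regions. The 9 markers of the proximal straight tubule summed to 3846 against 7987 to 8762 and to 4197 against 7304 to 7599, with 6 of 9 lowest there, and the 9 thick ascending limb markers to 3870.3 against 7791 to 9675 and 5097 against 8047 to 9276, with 6 of 9 lowest and 2 of 9 highest. The 16 proximal tubule markers were lowest on replicate 4 of both regions in 7 cases and highest there in 4, and summed to 15313 against 14141 to 18097 and to 10641 against 12036 to 16578, so that in cortex replicate 4 lay within the other arrays. Leukocyte markers summed to 1922 to 2536 in cortex and 1942 to 2963 in medulla over the 4 arrays of each, highest on replicate 4, where 5 of 10 were highest and 0 lowest in both regions. Of the remaining lists, the markers lowest on replicate 4 in both regions were 6 of 8 for collecting duct principal cells, 4 of 8 for intercalated cells, 4 of 6 for endothelium, 2 of 6 for the distal convoluted and connecting tubule, 1 of 4 for podocytes, 0 of 9 for fibroblasts and matrix and 0 of 6 for adrenal cortex. Fibroblast and matrix markers summed to 2056 on cortex replicate 4, within the 1378 to 2885 of the other cortex arrays, and to 4267 on medulla replicate 4 against 1736 to 3432, with 1 of 9 highest on replicate 4 in cortex and 5 of 9 in medulla. Collecting duct markers summed to 1001 to 2073 in cortex and 1031 to 3979.9 in medulla. Adipocyte markers summed to between 307 and 406 over the 8 arrays. Of these 7 markers, 2 were lowest on replicate 4 in both regions and 1 was highest. The widest range of a single adipocyte marker was 0.89 in cortex and 0.73 in medulla. Lep, specific to fat cells and outside the naming rule, was near the lower quartile of all probe sets at 4.50 to 4.56. The part of all these markers in the pattern of the members was not tested.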

How the data were processed

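The authors deposited 1 table of linear intensity per probe set for 8 arrays, and the submitters' processing notes name RMA in Affymetrix Expression Console; for both, the version is not given in the sources used here, nor is a genome build. Column medians and quartiles were nearly equal, so values were read as normalized between arrays and logged (base 2) with no pseudocount. The design assumed this step if values were linear. Of 29870 probe sets, the platform annotation gives 1 symbol for 18511, several genes for 575, and 10784 are unnamed here. Symbols were checked by Entrez identifier against the RefSeq table of GRCr8 (18394 matched, 0 changed). For 291 genes with more than 1 probe set the brightest was kept. No dim gene was left out.

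The regions entered a limma fit (lmFit, then eBayes; limma 3.58.1, R 4.3.3), with p-values adjusted over all genes (Benjamini-Hochberg); a call needed an adjusted p under 0.05 and 2-fold. Differences are medulla minus cortex. Ranges are highest minus lowest log2 value of a region's 4 arrays. The fit was tested on simulated data with independent noise on each array, which does not reproduce a shift that many genes share on 1 array. Replicate numbers follow accession order, and the labels do not say whether arrays of the same number share an animal. If they do, the unpaired fit ignores that pairing. All members may be named; values on every array are given for the 5 mitochondrial and 5 peroxisomal members with the largest smaller regional range, the 2 smallest limma p, Ppara, Ppargc1a, Acsl1, Cpt1a, Cat and the members of both compartments, and up to 4 genes per pathway list by the same order. Members, lists and compartments were chosen with earlier results of these data known. The alternatives were quantile normalization, median centring, the mean of probe sets, a filter at the 30th percentile, each array left out, a trended robust prior, array weights, the adjusted p alone, ranges of 1.5-fold and 3-fold, and the members of both compartments counted as peroxisomal; leaving out both replicate 4 arrays and the background of genes as bright as the members were added after the data were seen. Figures were drawn with matplotlib 3.10.9.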

Additional observations from a re-analysis of the deposited data

Results flagged for a closer look

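An array was set apart from the other 3 of its region where its gap to the nearest of them took up more of the whole range than Dixon's critical value allows. Over 132 sets of 4 values, 68 of them of members, this picked out 11, 4 of them of members, and chance picks out about 1 in 20. The members' share, 4 of 68, is near that. The genes of the pathway lists were named for their large ranges, so 1 in 20 is no measure for them. All 4 of the members' values were the lowest of their region and lay on replicate 4. Acox2 stood at 5.56 on cortex replicate 4 against 6.31 to 6.40 on the others. Ppara stood at 5.98 on medulla replicate 4 against 6.55 to 6.65 on the others. Echs1 stood at 8.11 on cortex replicate 4 against 8.71 to 8.81 on the others. Cat stood at 10.91 on cortex replicate 4 against 11.53 to 11.64 on the others.

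Among the genes of the pathway lists, 7 values were picked out, 6 of them on replicate 4. Acadsb stood at 6.62 on medulla replicate 4, the lowest there, against 7.71 to 7.90 on the others. Pex5 stood at 6.43 on cortex replicate 2, the highest there, against 6.11 to 6.16 on the others. Nudt12 stood at 5.50 on cortex replicate 4, the lowest there, against 6.24 to 6.33 on the others. Plin2 stood at 9.37 on cortex replicate 4, the highest there, against 7.01 to 7.16 on the others. Plin2 stood at 8.58 on medulla replicate 4, the highest there, against 6.91 to 7.16 on the others. Acss2 stood at 8.41 on cortex replicate 4, the lowest there, against 9.93 to 10.13 on the others. Slc16a7 stood at 7.98 on medulla replicate 4, the lowest there, against 10.43 to 10.48 on the others.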

How the results depend on the processing

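No paired analysis was possible because the labels number the arrays 1 to 8 across both regions and share no number between them. Of 1000 values recomputed under 20 settings, 926 kept their direction and call or moved by less than the spread between arrays. Another 38 moved further, and 36 were differences of single members, not called, that changed sign. Some medians among the 926 and the 38 changed sign too. The median difference of peroxisomal members was 0.0082 without medulla replicate 4. The mitochondrial median deviation of cortex replicate 1 was -0.078 without cortex replicate 4. The cause was not tested. limma called 0 members and 0 genes under every setting tried. Members lowest on replicate 4 of both regions numbered 21 to 23 with another array left out and 22 with median centring. Counts of genes past the range threshold were, for cortex, medulla and both regions, 654, 691 and 402; at 1.5-fold 2063, 2738 and 1475; at 3-fold 186, 157 and 96; and without both replicate 4 arrays 145, 170 and 45. With 1 array left out they ranged from 145 to 654, 170 to 691 and 84 to 379. For members they were 3, 3 and 2; at 1.5-fold 17, 16 and 11; at 3-fold 0, 1 and 0; without both replicate 4 arrays 0, 0 and 0; and with 1 array left out 0 to 3, 0 to 3 and 0 to 2. With 1 array left out the median ranges in cortex and medulla were 0.17 to 0.48 and 0.27 to 0.55 for mitochondrial and 0.20 to 0.63 and 0.31 to 0.49 for peroxisomal members. Without both replicate 4 arrays they were 0.17, 0.27, 0.20 and 0.31 in that order. The mitochondrial median deviation of cortex replicate 1 was -0.078 without both replicate 4 arrays, and -0.078 to 0.051 with 1 array left out. Differences between the regions changed sign with 1 array left out in 14 members, with a lowest and highest value of -0.17 and 0.0082 for Abcd3, -0.14 and 0.044 for Acadl, -0.38 and 0.0019 for Acadm, -0.18 and 0.10 for Acox2, -0.18 and 0.34 for Acsl1, -0.49 and 0.17 for Amacr, -0.038 and 0.14 for Cpt1a, -0.052 and 0.18 for Crot, -0.33 and 0.052 for Echs1, -0.18 and 0.051 for Etfa, -0.19 and 0.13 for Hacl1, -0.067 and 0.048 for Hadha, -0.12 and 0.23 for Ppargc1a, -0.12 and 0.15 for Scp2. With both replicate 4 arrays left out the difference was -0.10 for Acox2. With array weights the difference was -0.092 for Acox2, -0.0092 for Crot, 0.019 for Hacl1, -0.039 for Scp2. With quantile normalization the difference was -0.0095 for Acox2, 0.037 for Hadha, -0.0059 for Scp2. The number of arrays limits the members' precision.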

Other observations

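Genes of this pathway outside the naming rule, chosen after their values were seen, gave further values with no test. Vnn1, a pantetheinase gene that PPAR alpha activates, measured 5.72, 6.39, 7.36 and 7.73 on cortex replicates 1 to 4 and 6.29, 6.21, 7.04 and 6.78 on the medulla arrays, so replicates 3 and 4 were the higher ones in both regions. Acot2, a mitochondrial acyl-CoA thioesterase gene, measured 6.86, 7.07, 7.11 and 7.66 in cortex against 6.74, 6.78, 7.05 and 7.38 in medulla, highest on replicate 4 of each. The peroxisomal oxidase gene Hao2 stayed within 0.27 log2 units in cortex and 0.20 in medulla, with 10.94 and 10.84 on the replicate 4 arrays.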
